A study of Mus musculus with 11 samples.

Results

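On mouse chromosome 13, retinas lacking Nrl carried a long stretch of non-polyadenylated RNA that was nearly absent from wild-type retinas. The locus was taken as the 250 kb window from 97700000 to 97950000 (mm10) around Gm41031, a predicted long non-coding RNA gene with no known function. All listed features overlapping the window were kept, which gave 10 of the 36097 unique features of the table, 5 on the minus strand and 5 on the plus strand. Of these, 8 passed the minimum mean of 5 normalised counts that 21395 features of the table passed. The window was set around MSTRG.25914 and MSTRG.25908, which rank 1 and 2 of the 21395 tested features by their difference between the genotypes. The knockout and wild-type values, intervals and calls of these 10 features are therefore given as a description and not as a test.

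The study used bulk retina at postnatal day 21 from mice labelled as Nrl knock-out (6 libraries) and as wild-type (5 libraries). RNA depleted of polyadenylated transcripts was sequenced in every library as 50-base stranded single-end reads. Replicates carry numbers that are tied to no named animal, and the labels state neither strain nor sex nor how the knock-out allele was made. In bulk retina, fewer cells of a type and less RNA per cell cannot be told apart.

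Nrl encodes a leucine-zipper transcription factor that sets rod identity in newborn photoreceptors. Without it, cells that would have become rods are known to take on cone features. RNA without a poly(A) tail includes nascent transcripts, intronic RNA and transcripts of enhancers, so it can show transcription that a poly(A)-selected library would miss. Long non-coding RNA genes are often active in few cell types, and active promoters commonly give short transcripts on the strand opposite to the gene.

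The annotated start of Gm41031 is shown first, because it lies inside the gained stretch and a plus-strand feature of the locus begins beside it. The sequence is the RefSeq promoter window (GRCm38.p6, minus strand, chr13:97826006-97826305), 250 bases before to 50 bases after the start, with capitals marking matches to the motifs named below. The other 2 sequences are the exon junctions of the GENCODE M21 transcript of Gm41031, 30 bases on each side, with the upstream exon in capitals. They are what a spliced read of this RNA would carry.
Gm41031 promoter: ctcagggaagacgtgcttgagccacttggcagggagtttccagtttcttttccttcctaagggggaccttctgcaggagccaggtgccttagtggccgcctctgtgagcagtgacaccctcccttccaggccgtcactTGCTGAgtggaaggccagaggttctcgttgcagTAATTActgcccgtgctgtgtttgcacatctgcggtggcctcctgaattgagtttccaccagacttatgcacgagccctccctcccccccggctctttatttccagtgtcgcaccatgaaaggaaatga
Gm41031 junction of exons 1 and 2: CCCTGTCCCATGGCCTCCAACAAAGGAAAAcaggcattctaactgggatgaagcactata
Gm41031 junction of exons 2 and 3: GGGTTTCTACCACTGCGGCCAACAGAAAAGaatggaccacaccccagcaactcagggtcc

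The promoter window was searched on both strands for 5 motifs. It held TAATTA, a core bound by many homeodomain factors, once, at base -79 from the start, and 5.29% of the 32851 RefSeq promoters hold it. It also held TGCTGA, a half-site of MAF-family factors, the family of Nrl, once, at base -112, and 19.5% of the promoters hold that. TAATCC (a core bound by CRX and OTX2, in 7.06% of promoters), AGGTCA (a nuclear receptor half-site, in 16.3%) and TATAAA (the TATA box, in 13.6%) had no match. The GC content of the window was 56.0%, against a median of 52.7% over all RefSeq promoters, with quartiles of 45.7% and 61.7%. These matches describe letters in the window and are not binding sites.

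At Nrl and at photoreceptor genes the libraries separated by genotype. The features listed in the table held 3374221 to 4876429 reads per knockout library and 3238184 to 4150460 per wild-type library. Across log2 values, libraries correlated at 0.890 to 0.941 within knockout, 0.880 to 0.941 within wild-type and 0.672 to 0.745 between the groups. MSTRG.28375, antisense to Nrl, held 0 to 0.758 normalised counts in knockout, with 5 libraries at 0, and 33.3 to 55.5 in wild-type. Whether the knock-out allele alters the bases it covers is not stated. Features overlapping rod genes were mostly lower in knockout: of 45 tested at 16 of the 24 listed genes, limma called 34 lower and 4 higher, with a median log2 difference of -2.76. Their summed level was 573 to 971 normalised counts in knockout and 3840 to 6344 in wild-type, and MSTRG.65738, antisense to the rod transducin gene Gnb1, had the largest difference, -8.10 on the log2 scale. Of 36 features at 13 of 21 cone genes, 24 were called higher and 3 lower (median 2.01), with sums of 1550 to 2362 in knockout and 614 to 952 in wild-type; MSTRG.72793, antisense to the cone opsin gene Opn1sw, led with 4.90. All 5 features at 4 of 14 glial stress genes were called higher, led by MSTRG.18014 at Socs3 (2.82), with sums of 806 to 1464 in knockout and 236 to 405 in wild-type. Over all tested features the median was -0.02, and 15.6% were called higher and 12.6% lower. These shifts accompany the genotype in the same libraries, and their part in the levels at Gm41031 was not tested.

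The main gain lay on the minus strand, in 2 long features that run almost end to end. MSTRG.25914 covers 97835280 to 97845656, 10377 bp, and overlaps no annotated gene on either strand. MSTRG.25908 covers 97779286 to 97833490, 54205 bp, and takes in the whole of Gm41031 (97796162 to 97825885, 29724 bp, 3 exons). Only 1789 bases separate them, and together they extend over 66371 bp. By length MSTRG.25908 ranks 100th and MSTRG.25914 789th of the 36097 features, while the median feature is 235 bp long.

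MSTRG.25914 held 488, 539, 651, 507, 659 and 683 normalised counts in knockout libraries 1 to 6. In wild-type libraries 1 to 5 it held 1.37, 0.941, 4.64, 0.967 and 2.02, that is 10 reads in all. Every knockout library was far above every wild-type library, and the groups do not overlap. The means were 588 ± 86.3 in knockout (SD, n = 6) and 1.99 ± 1.55 in wild-type (SD, n = 5), a log2 difference of 7.74 (SE 0.25) on the log2(value + 1) scale. Counted as reads, 3885 in knockout stood against 10 in wild-type, a depth-adjusted ratio of 291; its exact 95% interval, 158 to 607, covers counting error only, as do the intervals below. In the authors' deposited table its log2 fold change is 8.17 (SE 0.49).

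MSTRG.25908 held 740, 750, 587, 669, 341 and 659 normalised counts in knockout libraries 1 to 6. In wild-type libraries 1 to 5 it held 4.11, 1.88, 3.71, 1.93 and 10.1. The lowest knockout library, replicate 5, was still far above the highest wild-type library, also replicate 5, and the groups do not overlap. The means were 624 ± 151 in knockout (SD, n = 6) and 4.35 ± 3.37 in wild-type (SD, n = 5), a log2 difference of 7.01 (SE 0.28). The reads were 3984 in knockout and 21 in wild-type, a ratio of 142 (exact 95% interval 92.7 to 229.6). The authors' deposited table gives a log2 fold change of 7.18 (SE 0.38). Among all 36097 features MSTRG.25908 ranked 546th and MSTRG.25914 582nd by mean level in knockout, and 23135th and 32620th in wild-type.

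**Figure D1:**
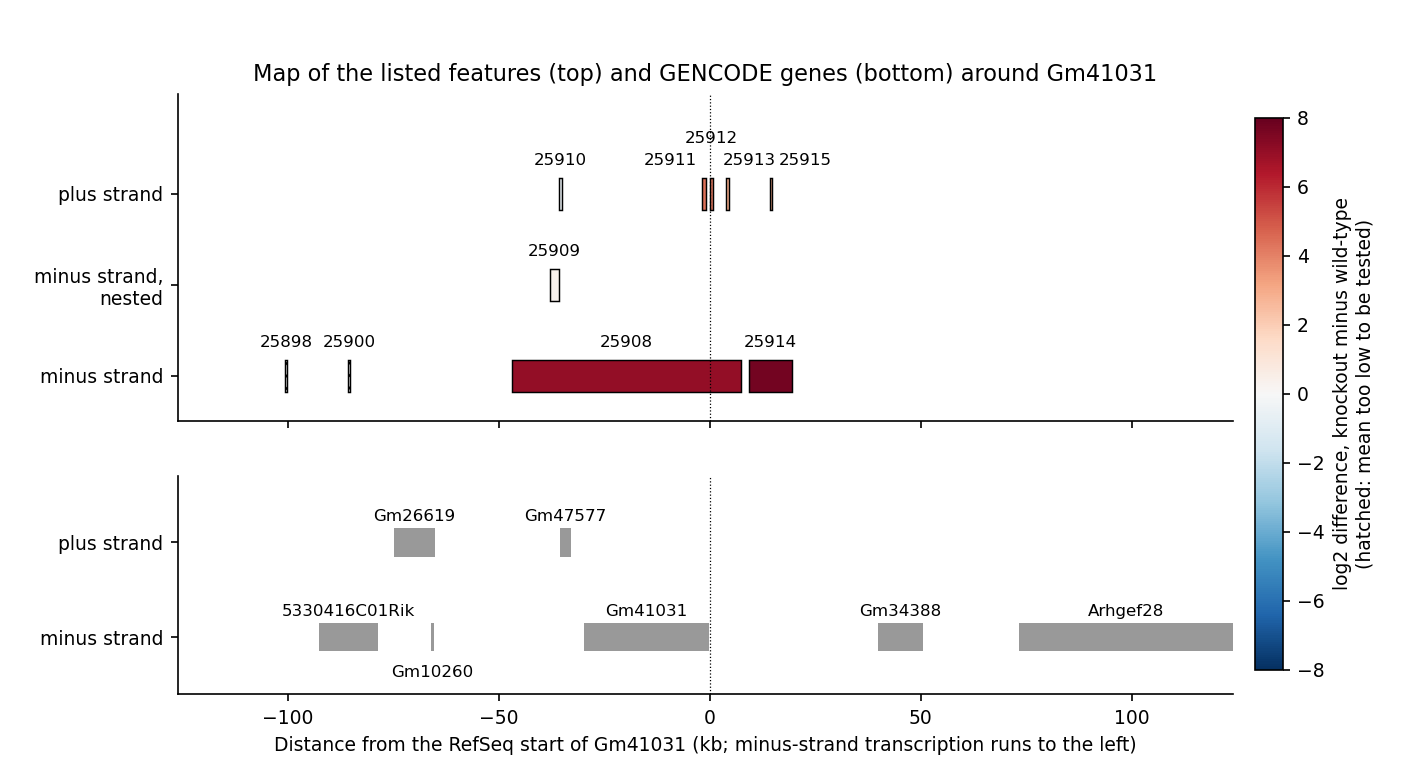
Map of the locus. The x axis is the distance in kb from the RefSeq start of Gm41031; the upper panel shows the 10 listed features by strand, coloured by the log2 difference of knockout minus wild-type (hatched where the mean was too low to be tested, the shortest features drawn slightly widened), and the lower panel shows the GENCODE genes of the window. The dark red features MSTRG.25914 (log2 difference 7.74) and MSTRG.25908 (7.01) lie end to end, and MSTRG.25908 runs past both ends of Gm41031, while MSTRG.25909 and MSTRG.25910 are near white.

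Annotated starts do not mark the ends of the gained stretch. Transcription of the minus strand runs towards lower coordinates, so MSTRG.25914 is the upstream end of the stretch. RefSeq starts Gm41031 at 97826055 and GENCODE at 97825885, 170.0 bases apart. MSTRG.25908 reaches 7435 bases upstream of the RefSeq start, and MSTRG.25914 begins a further 1789 bases on and ends 19601 bases upstream of that start. The next annotated gene upstream on this strand is the non-coding Gm34388, 20184 bases beyond MSTRG.25914, and after it comes the 3′ end of Arhgef28, which encodes a guanine nucleotide exchange factor, 53812 bases beyond. No listed feature lies between MSTRG.25914 and the upper edge of the window.

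Divided by span length, the count of MSTRG.25914 was higher than that of MSTRG.25908 in knockout. In knockout libraries 1 to 6 the ratio of normalised counts per kb between them was 3.44, 3.75, 5.80, 3.96, 10.1 and 5.42, with a mean of 5.41 ± 2.48 (SD, n = 6). The shorter feature was higher on this measure in 6 of 6 libraries, and replicate 5 stood highest. Per kb of span the levels were 56.7 ± 8.31 for MSTRG.25914 and 11.5 ± 2.79 for MSTRG.25908 in knockout (SD, n = 6), against 0.192 ± 0.149 and 0.0802 ± 0.0621 in wild-type (SD, n = 5). The span of MSTRG.25908 holds 653 exonic bases of Gm41031 and long introns. In wild-type MSTRG.25908 held 21 reads, while MSTRG.25909, on the same strand inside it, held 351. The count of MSTRG.25908 thus left out reads within its span. The labels do not say which bases of a feature were counted. These are therefore counts divided by span length, not the signal of a whole span or of exons. Undivided by length, the mean ratio in knockout was 1.04.

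Short minus-strand features followed further downstream, with reads in knockout libraries alone. MSTRG.25900 (97740247 to 97740403, 157 bp), in an intron of the non-coding gene 5330416C01Rik, lies 38882 bases past the end of MSTRG.25908. It held 0.960 to 8.79 normalised counts in knockout, with a median of 3.06, and 0 in all 5 wild-type libraries. MSTRG.25898 (97725371 to 97725669, 299 bp), intergenic and 14577 bases further on, held 4.15 to 13.4 in knockout, with a median of 9.22, and again 0 in all 5 wild-type libraries. No knockout library was at 0 for either. Both failed the minimum mean of 5 (means of 2.26 and 4.70), so neither was tested. The lowest mean of any listed feature was 2.00, so a feature at 0 in wild-type was listed only through its knockout values. Against a floor of 3 reads over the wild-type group, 0.613 normalised counts, MSTRG.25898 was at least 13.97-fold higher (56 reads in knockout) and MSTRG.25900 at least 6.73-fold higher (27 reads). With these, the minus-strand features span 120.3 kb, from 97725371 to 97845656. Gm26619 and Gm10260, which lie in the gap before MSTRG.25908, overlap no listed feature.

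A pair of features inside the span of MSTRG.25908 had levels that overlap between the genotypes. MSTRG.25909 (97788307 to 97790331, 2025 bp) is on the same strand and lies downstream of Gm41031. It held 93.6, 77.7, 87.1, 85.4, 90.2 and 90.8 normalised counts in knockout libraries 1 to 6 and 74.1, 107, 57.5, 69.6 and 49.4 in wild-type libraries 1 to 5. The knockout values lie within the wild-type range. The means were 87.5 ± 5.57 in knockout (SD, n = 6) and 71.6 ± 22.2 in wild-type (SD, n = 5), a log2 difference of 0.33 (SE 0.20). In wild-type MSTRG.25909 thus held more normalised counts than the 54205 bp feature around it.

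MSTRG.25910 (97790368 to 97791072, 705 bp) starts only 36 bases away on the plus strand and covers 509 exonic bases of Gm47577, a transcript model that GENCODE classes as to be experimentally checked. Its knockout values ran from 9.76 to 36.4 with a median of 17.5, and its wild-type values were 37.0, 54.6, 13.0, 32.9 and 16.1. The groups overlap, with means of 18.8 ± 9.57 in knockout (SD, n = 6) and 30.7 ± 16.9 in wild-type (SD, n = 5) and a log2 difference of -0.62 (SE 0.35). Both features of this divergent pair were thus detected in every wild-type library, where the long features around them were near 0.

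**Figure D2:**
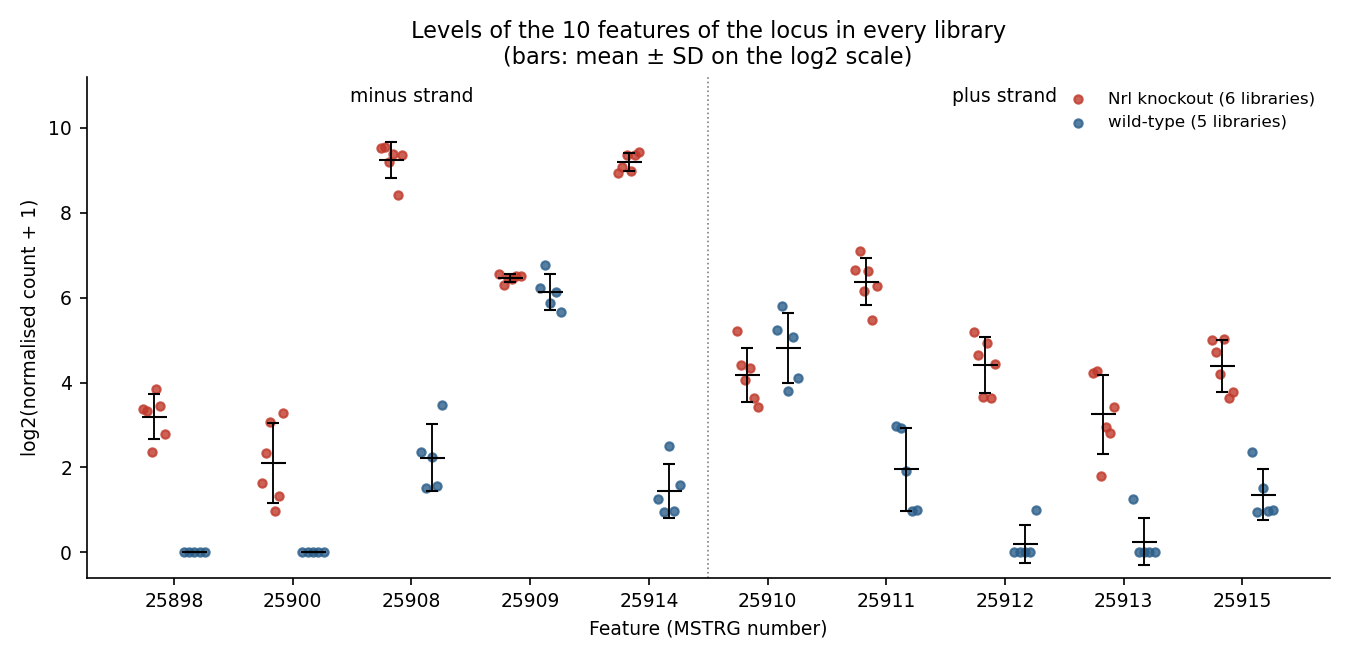
Levels of all 10 features by library. The y axis is log2(normalised count + 1), features are grouped by strand along the x axis, points are libraries (Nrl knockout red, wild-type blue) and bars are the mean ± SD. Knockout points of MSTRG.25908 and MSTRG.25914 lie far above their wild-type points, whereas the points of MSTRG.25909 and MSTRG.25910 overlap between the groups.

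On the plus strand, 4 short features opposite the gained stretch were also higher in knockout. MSTRG.25911 (97824191 to 97825224, 1034 bp) lies in the first intron of Gm41031, antisense to it, and ends 661 bases before the GENCODE start. It held 99.8, 135, 70.5, 97.9, 43.2 and 76.2 normalised counts in knockout libraries 1 to 6, against 6.86, 6.59, 2.78, 0.967 and 1.01 in wild-type libraries 1 to 5. The groups do not overlap. The means were 87.2 ± 31.4 in knockout (SD, n = 6) and 3.64 ± 2.91 in wild-type (SD, n = 5), a log2 difference of 4.42 (SE 0.36). Divided by its length, it held 84.3 ± 30.3 normalised counts per kb in knockout (SD, n = 6), the highest such value of the 10 features.

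MSTRG.25912 (97826159 to 97826732, 574 bp) starts 104 bases upstream of the RefSeq start of Gm41031 and points away from it, so that its first bases fall in the promoter window printed above. It held 11.4 to 35.4 normalised counts in knockout, with a median of 22.4. In wild-type, 4 of 5 libraries were at 0 and replicate 5 had 1 read (1.01 normalised counts). The reads were 139 in knockout and 1 in wild-type, a ratio of 104 (exact 95% interval 18.4 to 4137).

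The 2 other plus-strand features that were higher lie further upstream. MSTRG.25913 (97830037 to 97830395, 359 bp), inside MSTRG.25908, held 2.49 to 18.2 normalised counts in knockout (median 8.24) and 1 read in wild-type, in replicate 1. Its 63 knockout reads give a ratio of 47.1 (exact 95% interval 8.16 to 1891). MSTRG.25915 (97840331 to 97840881, 551 bp), inside MSTRG.25914, held 11.4 to 31.7 in knockout (median 21.3) and 4.11, 0.941, 1.86, 0.967 and 1.01 in wild-type. Its means were 21.6 ± 9.03 in knockout (SD, n = 6) and 1.78 ± 1.36 in wild-type (SD, n = 5), a log2 difference of 3.03 (SE 0.37), or 1.92 with a pseudocount of 5. The log2 difference of MSTRG.25912 was 4.21 with a pseudocount of 1, 2.31 with a pseudocount of 5 and 6.81 with DESeq2, and that of MSTRG.25913 was 3.00, 1.42 and 4.74 under the same settings. None of these plus-strand features covers an annotated exon of Gm41031. The libraries were stranded, but the labels do not say whether counting used the strand, so reads of these features and of the minus-strand transcripts opposite them cannot be told apart with certainty.

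In all, limma called 6 of the 8 tested features of the locus higher, beside 15.6% of all tested features called higher and 28.1% called in either direction. It called 0 of the 8 lower, 0 had an unadjusted p below 0.05 in that direction, and edgeR and DESeq2 also called 0 lower. The groups do not overlap in 8 of the 10 features, all higher in knockout, beside 8.28% of all listed features. The 6 called higher had wild-type means of 0.202 to 4.35, so they passed the minimum mean of 5 through their knockout values. Since the window was set on this contrast, these counts describe the locus and support nothing further. The median log2 difference of the 8 was 3.62. Summed over the 10 features the locus held 1472 ± 153 normalised counts in knockout (SD, n = 6) and 115 ± 37.7 in wild-type (SD, n = 5). Scaled to the total of listed reads, that is 326 to 443 CPM in knockout and 20.9 to 50.7 CPM in wild-type, where MSTRG.25909 and MSTRG.25910 make up most of the sum.

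The variation among knockout libraries was not used to choose the locus. The 2 long features did not move together there: MSTRG.25914 was highest in replicates 6, 5 and 3, and MSTRG.25908 was highest in replicates 2, 1 and 4 and lowest in 5. Across the 6 libraries, on the log2(value + 1) scale, Pearson's r was -0.58 (exact permutation p = 0.179) and Spearman's rank correlation -0.66 (exact permutation p = 0.175), and r was -0.48 without replicates 1 and 4, the farthest from the median. The relation thus did not pass the test, and 6 libraries limit what can be seen.

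MSTRG.25908 did vary with the antisense MSTRG.25911 inside it. Both ordered the knockout libraries the same way, with a Spearman correlation of 1.00 (exact permutation p = 0.00278, the smallest that the two-sided rank test of 6 libraries allows, adjusted p = 0.0472) and r of 0.92 (exact permutation p = 0.00139, adjusted p = 0.0236). Without replicates 3 and 5, r was 0.81. MSTRG.25914 varied against MSTRG.25910, with r of -0.90 (exact permutation p = 0.00556, adjusted p = 0.0472) and a Spearman correlation of -0.94 (exact permutation p = 0.0167, adjusted p = 0.142), and r of -0.88 without replicates 1 and 4. With MSTRG.25915, inside its own span, r of MSTRG.25914 was -0.96 (exact permutation p = 0.0194, adjusted p = 0.0826). P-values were adjusted over the 17 relations computed, and none of the other 15 passed in either measure. All features share library depth and composition. Against the percentage of reads taken by the 10 most abundant features, r was 0.69 for MSTRG.25908 (exact permutation p = 0.113). Its Spearman correlation was 0.83 (exact permutation p = 0.0583, adjusted p = 0.142), and r was 0.19 without replicates 3 and 5. For MSTRG.25914 against the same percentage, r was -0.48 (exact permutation p = 0.335) and the Spearman correlation -0.31 (exact permutation p = 0.564). Without replicates 1 and 4, its r was -0.81. The part of composition in the relations between features was not tested. Among 2553 features outside the locus with a knockout mean of at least 100, r had quartiles of -0.74 and 0.58 with MSTRG.25914 and of -0.54 and 0.77 with MSTRG.25908, so strong correlations were common in these 6 libraries.

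**Figure D3:**
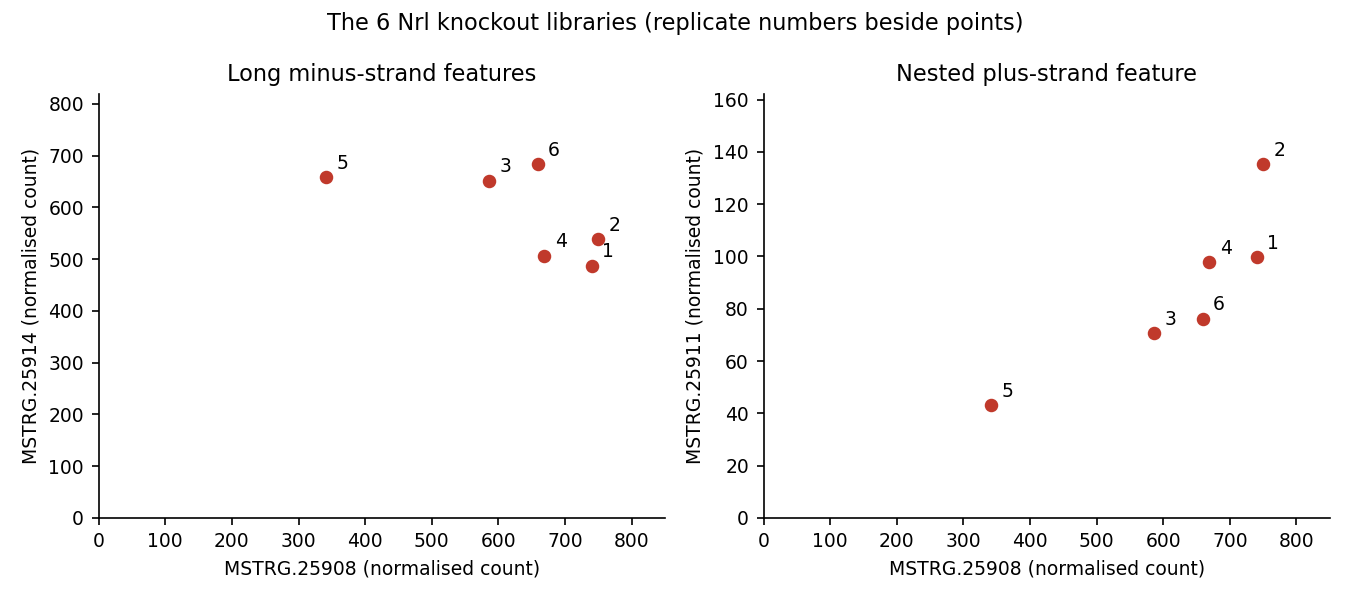
The 6 Nrl knockout libraries in normalised counts, with MSTRG.25908 on both x axes and MSTRG.25914 (left) or MSTRG.25911 (right) on the y axis; the numbers are replicates. On the left the points do not rise together (r = -0.62 in normalised counts), and on the right MSTRG.25911 increases with MSTRG.25908 from replicate 5 (43.2) to replicate 2 (135).

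The coefficient of variation between knockout libraries was 14.7% for MSTRG.25914, just under the lower quartile of comparable features, and 24.2% for MSTRG.25908, between the quartiles, beside a median of 20.5% and quartiles of 15.1% and 26.6% over 2555 tested features with a knockout mean of at least 100.

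In the 1 Mb on each side of the window, which the rule did not select, few features were higher in knockout. Below the window, 8 of 11 features were tested and limma called 1 higher and 3 lower; above it, 12 of 16 were tested, and 0 were called higher and 1 lower, beside 15.6% and 12.6% of all tested features. Above the window 0 features had an unadjusted p below 0.05 in the higher direction, and edgeR and DESeq2 called 0. The largest difference on each side was a lower level in knockout. MSTRG.25893 (97360063 to 97360674, minus strand), intergenic and the nearest listed feature below the window, fell to 1.15 ± 1.55 normalised counts in knockout (SD, n = 6), against 32.7 ± 17.5 in wild-type (SD, n = 5), -4.10 on the log2 scale (limma adjusted p = 5.37e-08). MSTRG.25952 (98947150 to 98948333, minus strand), intergenic at the far edge above, fell to 20.2 ± 9.37 in knockout (SD, n = 6), against 161 ± 37.5 in wild-type (SD, n = 5), -3.02 on the log2 scale (limma adjusted p = 1e-09).

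Other flanking features differed less. MSTRG.25891 (97237424 to 97237746, minus strand), intergenic, rose to 11.001 ± 4.09 in knockout (SD, n = 6), against 2.54 ± 1.33 in wild-type (SD, n = 5), 1.79 on the log2 scale (limma adjusted p = 0.000429). MSTRG.25867, antisense to Ankrd31, fell to 6.06 ± 2.30 in knockout, against 17.4 ± 4.85 in wild-type, -1.40 on the log2 scale (limma adjusted p = 0.000973). MSTRG.25871, antisense to Fam169a, averaged 102 ± 16.03 in knockout (SD, n = 6) and 148 ± 30.5 in wild-type (SD, n = 5), -0.52 on the log2 scale (limma adjusted p = 0.0339), with overlapping groups. The call was lost without knockout 3, 4, 5 or 6 or wild-type 1, 2 or 3, at limma adjusted p of 0.0573 to 0.0872. It was also lost with all 11 libraries when limma was run without trend and robust (adjusted p = 0.0896). Above the window, MSTRG.25946 (0.76), MSTRG.25949 (-0.66), MSTRG.25921 (0.35) and MSTRG.25933 (0.18) were not called, and the 11 features not called there had log2 differences between -0.66 and 0.76.

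**Figure D4:**
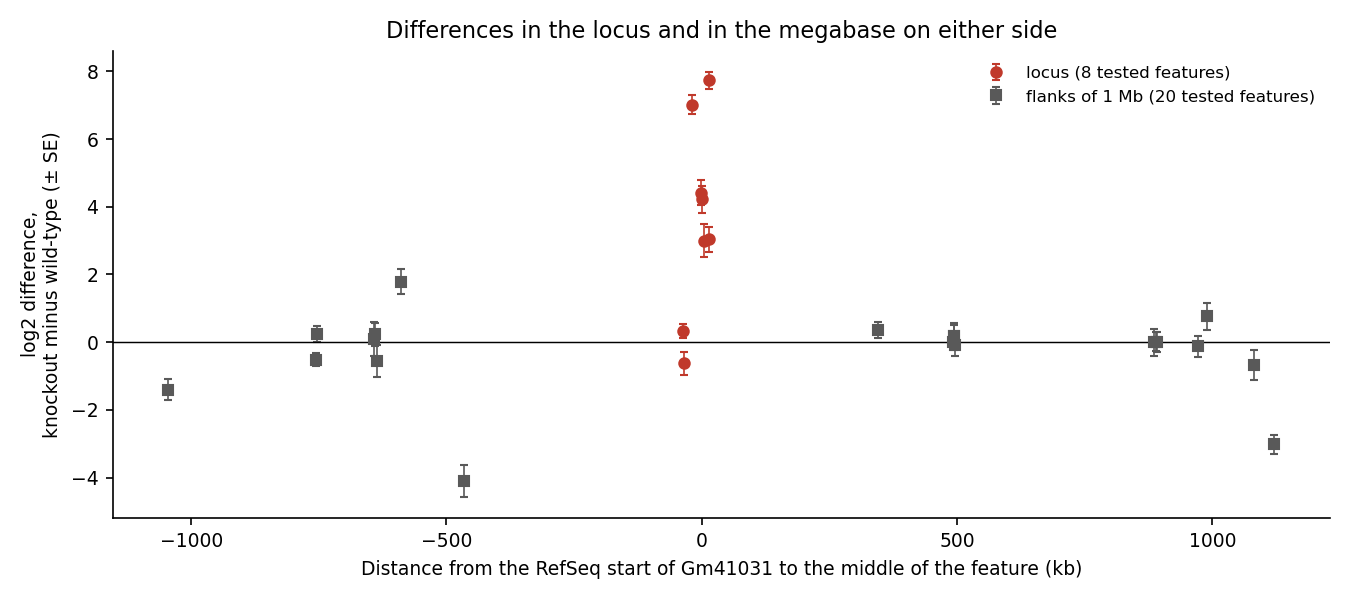
Log2 difference of knockout minus wild-type (± SE from limma) for the 8 tested features of the locus (red circles) and the 20 tested features of the 1 Mb flanks (grey squares), against the distance in kb from the RefSeq start of Gm41031. The 6 high points of the locus, 3.00 to 7.74 with a pseudocount of 1, stand within 20 kb of that start on either side, and the lowest flank points are at -4.10 below and -3.02 above.

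The genes around the locus gave little non-coding signal outside the window. Arhgef28 had 1 feature there, MSTRG.25921 on the opposite strand, with 41.3 ± 10.4 normalised counts in knockout (SD, n = 6) and 32.6 ± 9.82 in wild-type (SD, n = 5). Its log2 difference was 0.35 (limma adjusted p = 0.313); its unadjusted p was not below 0.05, and edgeR and DESeq2 did not call it either. The nearest coding genes beyond, Enc1 below and Utp15 above, had no listed feature. The authors' deposited table puts all 10 features in one chromosomal domain, TAD_1962, and lists Enc1 among the mRNAs that were higher in it, with none lower. Enc1 encodes an actin-binding Kelch-like protein of neurons and lies 472 kb below the lowest feature of the locus. The 10 features of the locus are 55.6% of the 18 listed in this domain; of the 5 tested features of the domain outside the locus, 1 was called higher (MSTRG.25891) and 1 lower (MSTRG.25893).

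Outside the window and its flanks, the patterns most like those of the long features lay on other chromosomes. Likeness was measured as the root mean square difference between centred log2 profiles over the 11 libraries, and since the genotype difference dominates these profiles, it mainly finds gains of similar size. MSTRG.28378 on chromosome 14, antisense to Gm10876, the non-coding gene beside Nrl in GENCODE, was the nearest of the features outside them to both, at 0.725 from MSTRG.25914 and 0.608 from MSTRG.25908. The 2 long features themselves lay 0.710 apart, so MSTRG.25914 was closer to MSTRG.25908 than to MSTRG.28378. MSTRG.25908, in contrast, was closer to MSTRG.28378 than to MSTRG.25914. MSTRG.28378 held 408 ± 42.9 normalised counts in knockout (SD, n = 6) and 2.64 ± 1.74 in wild-type (SD, n = 5). Next for MSTRG.25914 came MSTRG.89153 and MSTRG.89156 antisense to Def8 on chromosome 8 (0.886 and 0.947), MSTRG.21903, opposite Catsperb on chromosome 12 (0.999), and the intergenic MSTRG.21499 on the same chromosome (1.06). Next for MSTRG.25908 came MSTRG.21499 (0.772), MSTRG.42111 on chromosome 18 (0.824), MSTRG.44710 in Gm8189 on chromosome 19 (0.825) and MSTRG.3392 on chromosome 1 (0.862).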

How the data were processed

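Poly(A)-depleted RNA of retina in 11 libraries (6 Nrl knockout, 5 wild-type) was read from 1 deposited table of 36180 lines and 36097 unique features; 83 features stand on 2 lines and were used once. The deposited values per library are a signal, gene counts that the authors had divided by size factors. The authors' log2 fold changes and p-values come from the same deposited table, and its score column, also deposited by the authors, has the opposite sign to the fold change in 100.0% of features. Cuffdiff, Cufflinks 2.2.1 and TopHat2 2.0.10 are listed, with no role, in the submitters' processing notes, beside the builds mm9 and mm10. Deposited starts count from 0: adding 1 gave an annotated exon start for 94.8% of 155 Ensembl-named features. Coordinates are printed from 1.

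Values were tested as log2(value + 1) with limma 3.58.1 (R 4.3.3; trend and robust) over the 21395 features with a mean of at least 5, with Benjamini-Hochberg adjustment and a threshold of 0.05. Dividing by the value of 1 read gave whole reads for 100.0% of values (tolerance 0.001). On these reads of 9 libraries, edgeR 4.0.16 (quasi-likelihood) called 5723 features and DESeq2 1.42.0 called 5468, against 5640 with limma on the same 9 libraries and 6022 on all 11; knockout 2 and wild-type 5, where 1 read is worth nearly 1, were left out of them. The level of 3 reads was 2.28 to 4.11 normalised counts in a single library. The floor used where the wild-type group is at 0 was 3 reads over the whole group, 0.613 normalised counts. Separate animals are not stated, and the computed p-values then reflect only the spread of these libraries, which may be technical. Correlations used exact permutation tests over 720 pairings, two-sided. The code was tested on simulated counts.

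The locus, its members and the gene lists were chosen with earlier results of these data known. By rule the text names the members that passed the filter, the 5 tested features with the largest absolute log2 difference in the 1 Mb on each side, the genes of the window with the nearest coding genes and the mRNAs listed for its domain, the leading called feature of each list and the 5 features most like each long one. MSTRG.25898 and MSTRG.25900, which did not pass, were named after their values were seen. Of the items the rule selects, 1 gene and the results that need it are not reported here. Alternatives changed the pseudocount, the filter, the scaling, the tool, the flank width and the libraries.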

Additional observations from a re-analysis of the deposited data

Results flagged for a closer look

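In 4 of the 18 groups of libraries examined at the locus, 1 library stood apart from the rest by Dixon's criterion (gap over range above 0.71 for 5 libraries), which chance meets in about 1 group in 20 where values are not tied. All 4 are wild-type groups of very low counts. Wild-type replicate 5 held 10.1 normalised counts of MSTRG.25908, and it was the only wild-type library with any MSTRG.25912, at 1.01. Wild-type replicate 1 was the only one with any MSTRG.25913, at 1.37, and it held 4.11 of MSTRG.25915. The values for MSTRG.25912 and MSTRG.25913 are 1 read each beside 4 libraries at 0, so any such read meets the criterion and that chance rate does not apply to them.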

How the results depend on the processing

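Of 826 recomputed values, 0 reversed in direction, and 9 lost and 3 gained a call. Another 23 were marked as moved in size by more than the replicate spread or 1.5 times (counts), and 791 were left unmarked. Size was not judged for single features other than the 2 long ones, so some of the 791 moved beyond the replicate spread. MSTRG.25912, with a replicate spread of 0.57, had a log2 difference of 4.21 in the main setting, 2.31 with a pseudocount of 5 and 7.50 with edgeR. At the locus 6 features were called higher whichever library was left out. With a mean of at least 20, 1722 features were called higher and 1628 lower, 3 of them at the locus (higher), with 0 higher and 2 lower in the flanks, 2 higher and 20 lower at rod genes and 12 higher at cone genes. With no filter the flanks had 2 higher. Flanks of 0.5 Mb had 1 lower, and flanks of 2 Mb had 5 higher and 21 lower. Rod features called higher were 2 with DESeq2 and with limma on the 9 libraries of the count tests, an alternative chosen after seeing the data. The log2 difference of MSTRG.25914 was 6.42 with a pseudocount of 5 and 8.19 with DESeq2; that of MSTRG.25908 was 6.09 with a pseudocount of 5, 7.69 with edgeR and 7.72 with DESeq2. A larger pseudocount lowers both by construction. The ratio between them was 1.04 undivided by length, and 4.47 to 5.80 when each knockout library was left out.

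With a replicate block over replicates 1 to 5, 3715 features were called higher and 3217 lower, against 3199 and 2521 in the same libraries without it; at the locus 6 were called with it. Same-numbered libraries deviated together with correlations of 0.00135 to 0.294. The same-numbered wild-type library correlated best for knockout 1 and 5, and a different one for knockout 2, 3 and 4. The numbers were not taken as pairs, and these values do not settle whether they are. Wild-type levels of the locus features other than MSTRG.25909 and MSTRG.25910 rest on at most 21 reads, which limits the precision of their folds.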
